A study of Mus musculus with 7 samples.

Results

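Among nuclei of cultured BB-p53n OPCs, a rare set was chosen by its transcripts of *Bnc2*, which encodes the zinc finger protein basonuclin 2. The library held 10047 barcodes, of which 8917 had 2000 to 8000 detected genes and were kept. Members were the 96 kept nuclei with 2 or more *Bnc2* UMIs (unique molecular identifiers, each counting 1 captured transcript), or 1.08% of the kept nuclei (95% exact binomial interval 0.873 to 1.31). They were compared with the 8673 kept nuclei that had 0 *Bnc2* UMIs, and the 148 nuclei with exactly 1 were described apart.

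The OPCs (oligodendrocyte progenitor cells) were primary cells of C57BL/6 *Trp53fl/fl* mouse pups of either sex at postnatal day 5 to 7, isolated with an antibody to CD140a. They were transduced in culture with a PDGFB-IRES-CRE retrovirus to delete *Trp53* and overexpress PDGFB. Members and comparison nuclei share this treatment, and no culture without it is part of the comparison. The cells formed 1 library of nuclear RNA, prepared with 10x 3′ reagents of version v3.1. The 3 early-stage and 3 late-stage tumor samples of the study were not analysed here.

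OPCs divide in the postnatal brain and give rise to the myelinating oligodendrocytes, under control of factors such as OLIG2 and SOX10. NFIA is a transcription factor of glial development that acts at the onset of gliogenesis and in astrocyte differentiation. Basonuclin 2 is best known from connective tissue and pigmentation. *Arhgap24* encodes a GTPase-activating protein for RAC, *Trpm3* a cation channel and *Nrxn3* a presynaptic adhesion molecule.

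Because there was 1 library and nuclei are not replicates, no test was possible and none was run. Levels are UMIs summed over the nuclei of a group, in CPM (counts per 1e6 UMIs of the group). Their 95% exact intervals cover counting error only. Members held 1584980 UMIs and the comparison nuclei 136943816, so the intervals of the members are the wider ones. The median depth was 11857.5 UMIs in members, 15639 in nuclei with 1 *Bnc2* UMI and 13759 in comparison nuclei, and mitochondrial transcripts took 5.87%, 6.14% and 6.34% of the UMIs. *Trp53* was at 22.1 CPM in members and 24.7 CPM in comparison nuclei, and mouse *Pdgfb* gave 3 UMIs in members. Counts summed over a gene cannot tell the deleted exons of *Trp53* from the rest, and viral transcripts were not analysed here.

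The *Bnc2* gene lies on the minus strand of chromosome 4 of GRCm39 from 84193332 to 84593512, and *Nfia* lies on the plus strand of the same chromosome from 97660971 to 98007111. The bases upstream of their starts are shown because these genes name the set, with *Il33*, a leading gene described below, as an example with matches. Each run holds 250 bases, 5′ to 3′ on the strand of the gene, and capitals mark matches to a motif in either orientation. The GRCm39 windows end at the base before the GENCODE gene start, at chr4:84593513-84593762 for *Bnc2*, chr4:97660721-97660970 for *Nfia* and chr19:29902233-29902482 for *Il33*. A RefSeq window of *Bnc2* is shown as well, at chr4:84610198-84610447 in GRCm38.p6.
Bnc2, GENCODE start: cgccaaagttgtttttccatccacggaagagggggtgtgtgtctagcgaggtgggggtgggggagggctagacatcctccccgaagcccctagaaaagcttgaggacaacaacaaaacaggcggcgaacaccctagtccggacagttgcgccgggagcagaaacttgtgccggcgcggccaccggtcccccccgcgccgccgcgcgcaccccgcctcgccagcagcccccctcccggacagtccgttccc
Bnc2, RefSeq start: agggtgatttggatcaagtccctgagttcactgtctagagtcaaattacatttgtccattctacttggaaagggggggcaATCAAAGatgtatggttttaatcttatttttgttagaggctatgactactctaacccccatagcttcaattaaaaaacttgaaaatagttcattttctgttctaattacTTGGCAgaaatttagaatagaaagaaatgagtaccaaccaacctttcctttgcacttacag
Nfia, GENCODE start: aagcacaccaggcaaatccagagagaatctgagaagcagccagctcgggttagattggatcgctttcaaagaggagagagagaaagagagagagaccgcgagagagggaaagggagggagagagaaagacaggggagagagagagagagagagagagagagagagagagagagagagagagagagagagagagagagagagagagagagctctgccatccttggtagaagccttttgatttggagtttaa
Il33, GENCODE start: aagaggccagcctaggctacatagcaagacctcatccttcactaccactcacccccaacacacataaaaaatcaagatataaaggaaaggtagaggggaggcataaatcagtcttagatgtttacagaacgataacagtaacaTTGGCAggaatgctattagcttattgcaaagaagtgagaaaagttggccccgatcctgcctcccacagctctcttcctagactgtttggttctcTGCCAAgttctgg
The motifs searched were an EBF motif (TCCCNNGGGA), a full NFI motif (TTGGCNNNNNGCCAA), a short NFI site (TTGGCA) and a TCF/LEF motif (CTTTGAT), on both strands, and a full NFI motif can overlap a short one. The RefSeq windows were searched first and held 16 of 23 genes looked up, namely *Bnc2*, *Nfia*, *Nrxn3* and the 20 leading genes named below. The short NFI site was present for 6 of the 16 (37.5%), against 14.1% of the 27025 genes searched. A TCF/LEF motif was present for 2 (12.5%), *Bnc2* and *Nfia*, against 3.72%. The GENCODE starts were searched only after these counts had been seen, because the RefSeq window of *Bnc2*, matched by sequence to GRCm39, lies inside the gene, with its start 65078 bases past the GENCODE start. All RefSeq windows of *Nrxn3* and *Pde1c*, which also held the short NFI site, lie inside their genes too. The RefSeq window of *Nfia* lies far upstream of its GENCODE start. At the GENCODE starts, the short NFI site was present for 4 of 23 genes (17.4%), against 12.8% of 21228 genes, and the TCF/LEF motif for 0 of 23, against 3.18%. The EBF and full NFI motifs were present for 0 genes in both searches, against at most 0.914% of all genes. Thus the RefSeq matches of *Bnc2* and *Nfia* were not present at their GENCODE starts, while *Il33* and *Igfbp5* held the short NFI site in both sets. A match describes the letters only.

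The members differed in their number of *Bnc2* UMIs. Of the 96, 56 had 2 UMIs and so lay just inside the threshold, 17 had 3, 5 had 4, 8 had 5, 4 had 6, 3 had 7, and 1 each had 8, 9 and 12. The sum was 297 UMIs, or 187 CPM. No fold is given for *Bnc2*, since the rule sets the comparison to 0.

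The other marker genes of the set were higher in members, except that *Nfia* stayed below 2-fold. *Arhgap24* ran from 0 to 19 UMIs per nucleus in members, with a median of 2, and was at 191 CPM (170.2 to 214) against 5.81 CPM (5.41 to 6.22) in comparison nuclei, a ratio of 32.9 (28.8 to 37.6). *Trpm3* ran from 0 to 78 UMIs per member nucleus, with a median of 8, and was at 729 CPM against 24.4 CPM, a ratio of 29.9 (28.0 to 32.0). Single nuclei overlapped for both genes, since comparison nuclei reached 22 UMIs of *Arhgap24* and 65 of *Trpm3*. *Nrxn3* ran from 0 to 55 UMIs with a median of 7 in members, and from 0 to 53 with a median of 1 in comparison nuclei. Its level was 624 CPM against 199 CPM, a ratio of 3.13 (2.94 to 3.34). *Nfia* was found in almost every nucleus of both groups, from 0 to 61 UMIs with a median of 20.5 in members and from 0 to 77 with a median of 9 in comparison nuclei. Its level was 1386 CPM (1329 to 1445) against 703 CPM (698 to 707), a ratio of 1.97 (1.89 to 2.06).

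The markers were higher in nuclei with more *Bnc2* UMIs, up to 3 to 5 UMIs. From 0 over 1 and 2 to 3 to 5 *Bnc2* UMIs, *Nfia* was at 703, 924, 1117 and 1880 CPM, and at 1819 CPM in the 9 nuclei with 6 to 10. *Trpm3* was at 24.4, 222, 461 and 1283 CPM, and then at 980 CPM. The intervals for *Trpm3* were 827 to 1152 at 6 to 10 UMIs and 1175 to 1399 at 3 to 5, but they leave out the spread between nuclei. Single nuclei ran from 0 to 34 *Trpm3* UMIs at 6 to 10 and from 0 to 78 at 3 to 5. Their medians were 9.90 and 10.7 per 10000 UMIs, so no difference between these 2 groups is read from the intervals. The nucleus with 12 *Bnc2* UMIs had 1254 CPM of *Trpm3* and 1816 CPM of *Nfia*. *Olig2* was at 293 CPM in comparison nuclei and 295 CPM in members.

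**Figure D1:**
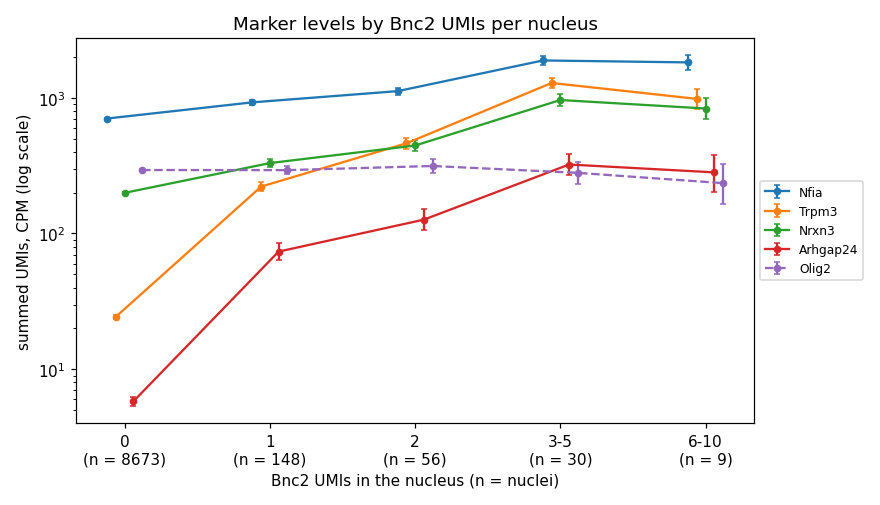
Level of 5 genes (CPM, log scale) in kept nuclei of all clusters grouped by *Bnc2* UMIs, with points for summed UMIs and bars for 95% exact Poisson intervals. *Trpm3* runs from 24.4 CPM at 0 *Bnc2* UMIs to 1283 CPM at 3 to 5, while *Olig2*, drawn dashed, is at 293 CPM in nuclei with 0.

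The members were not 1 uniform group. Clusters were made from principal components computed with *Bnc2* left out of the variable genes. Of the 8 clusters, the smallest, cluster 7 with 180 nuclei, held 61 of the 96 members (63.5%). Cluster 5, the deepest with a median of 30290 UMIs, held 16 members, and each of the other 6 clusters held 1 to 8. Of the 40 members with 3 or more *Bnc2* UMIs, 36 lay in cluster 7, against 25 of the 56 with 2 (44.6%) and 33 of the 148 nuclei with 1 (22.3%). Cluster 7 also held 86 comparison nuclei, which had 0 *Bnc2* UMIs.

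The 35 members outside cluster 7 were deeper and had higher doublet scores. Their median depth was 22571 UMIs against 11160.0 in the 61 members of cluster 7. Of the 35, 14 (40.0%) were among the 8% of kept nuclei with the highest Scrublet scores, against 2 of the 61 (3.28%) and 8.64% of comparison nuclei. The part of depth and of doublets in their membership was not tested. The levels of the marker genes are therefore given for both sets, and ratios without such a split are over all 96 members. *Nfia* was at 1941 CPM in members of cluster 7 and 837 CPM in members outside it. *Trpm3* was at 1300.4 and 164 CPM, *Arhgap24* at 317 and 66.5 CPM, and *Nrxn3* at 1001 and 251 CPM. The comparison nuclei of cluster 7, although without a *Bnc2* UMI, had 1760.5 CPM of *Nfia*, 1155 CPM of *Trpm3*, 304 CPM of *Arhgap24* and 887 CPM of *Nrxn3*. Nuclei of cluster 7 with 1 *Bnc2* UMI had 1854, 1153, 454 and 928 CPM of these genes. Within cluster 7, levels thus differed far less by *Bnc2* UMIs than over all kept nuclei. *Nfia* was thus high in cluster 7 with or without *Bnc2* UMIs, and the description Nfia-rich did not hold for the members outside it. These genes took part in the clustering, so the values describe the cluster.

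Members had other members as neighbors. Among the 15 nearest nuclei of a member, 31.8% were members on average, against 8.24% for nuclei with 1 *Bnc2* UMI, 0.563% for comparison nuclei and 1.08% of all kept nuclei. The mean was 44.3% for members in cluster 7 and 10.1% for members outside it. Members made up 33.9% of the nuclei of cluster 7. No member of cluster 7 was without a member neighbor, while 20 of the 35 outside had none.

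Across genes, 9329 had a mean of the 2 groups' CPM of at least 10 and were compared, *Bnc2* being left out. Of these, 272 (2.92%) were at least 2-fold higher in members and 80 (0.858%) at most 0.5 times as high. The median log2 ratio over all of them was -0.03. The nuclei were chosen by *Bnc2*, and the ratios are a description of that choice. A gene could pass the limit through its level in members, and 111 of the 272 higher genes were under 10 CPM in comparison nuclei.

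The 20 genes with the highest ratios held regulators, receptors and matrix genes beside *Arhgap24* and *Trpm3*. *Ebf2*, a transcription factor of the early B cell factor family, was at 167 CPM against 5.84 CPM, a ratio of 28.6 (24.8 to 32.9). *Dync1i1*, an intermediate chain of the motor cytoplasmic dynein, was at 1019.6 CPM against 41.7 CPM, a ratio of 24.5 (23.1 to 25.9). *Ebf2* was at 283 CPM in members of cluster 7 and 52.7 CPM in members outside it, and *Dync1i1* at 1743 and 304 CPM. Comparison nuclei of cluster 7 had 201 CPM of *Ebf2* and 1995 CPM of *Dync1i1*, so both were high there without *Bnc2* UMIs. *Dync1i1* had a UMI in 80.0% of members and 10.2% of comparison nuclei after each nucleus was thinned to 5000 UMIs, and in 86.5% and 24.1% without thinning. The library held no cell type that should lack *Dync1i1*, so no background share from free RNA could be given.

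Secreted and matrix proteins were *Sfrp1*, a secreted WNT modulator, with a ratio of 13.0 (10.8 to 15.5), *Npnt*, an integrin ligand, with 12.7 (10.3 to 15.5), and *Fras1*, a basement membrane protein, with 12.5 (11.2 to 13.9). *Igfbp5*, which binds insulin-like growth factors, was at 9.72 times (7.88 to 11.9), and the cytokine *Il33* at 7.11 times (5.85 to 8.56). Membrane proteins and receptors were *Tspan8* at 19.9 times, *Adgra3* at 7.71 times, the semaphorin *Sema5a* at 7.62 times, *Crim1* at 7.505 times, the WNT5A receptor *Ror1* at 7.14 times and *Boc*, a hedgehog co-receptor, at 6.73 times. The remaining genes were *Zfp804b* at 13.9 times, the ubiquitin ligase subunit *Fbxo32* at 11.3 times, the phosphodiesterase *Pde1c* at 7.93 times, *Nhs* at 6.13 times and *Sntb2* at 6.10 times. These 20 genes lie on 13 chromosomes.

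The 20 genes were picked by their ratio in these nuclei, so that their number per nucleus differs between members and comparison nuclei by choice. In thinned nuclei, members had a UMI of a median of 12 of the 20 genes, against 3 in nuclei with 1 *Bnc2* UMI and 1 in comparison nuclei. The median was 13 for members in cluster 7 and 4 for members outside it. It was 12 both for nuclei of cluster 7 with 1 *Bnc2* UMI and for those with 0. Of comparison nuclei outside cluster 7, 15 of 8435 (0.178%) had 8 or more of the genes.

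**Figure D2:**
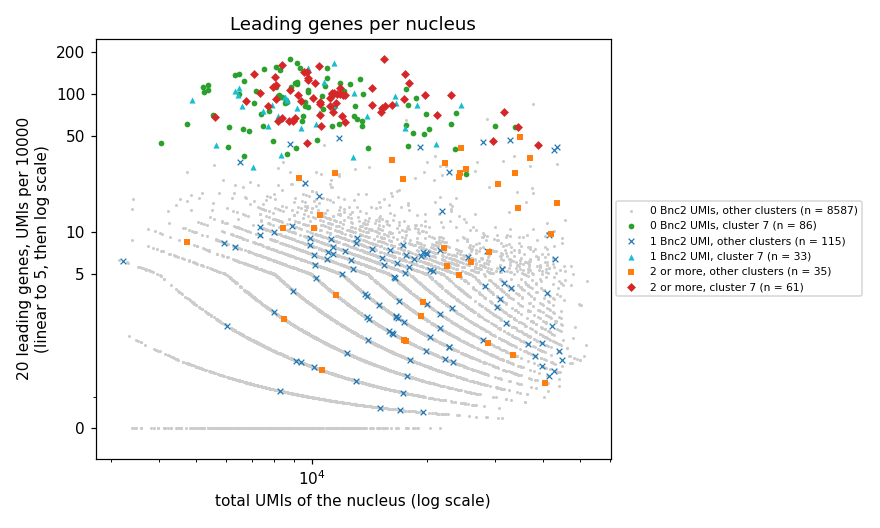
Each point is a nucleus, with its total UMIs (log scale) against the summed UMIs of the 20 leading genes per 10000 UMIs (linear to 5, then log scale), by *Bnc2* UMIs and cluster. Members of cluster 7 run from 43.2 to 178 and lie with the nuclei of that cluster that had 0 or 1 *Bnc2* UMI, while members of other clusters run from 1.48 to 48.5.

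Among the genes with the lowest ratios, *Xist*, the RNA of the inactive X chromosome, came first, at 24.6 CPM against 185 CPM, a ratio of 0.133 (0.0945 to 0.182). It was at 0 UMIs in the 61 members of cluster 7 and at 48.9 CPM in the other members. A UMI of *Xist* was found in 2169 of the 8673 comparison nuclei and 6 of the 96 members. In thinned nuclei the shares were 22.9% and 4.21%. Most nuclei of both groups thus had no *Xist* UMI, and its absence does not mark the members. Of the 86 comparison nuclei of cluster 7, 3 had a UMI of *Xist*. Y-linked genes were low as well, with *Uty* at 8.20 against 27.3 CPM and *Eif2s3y* at 6.94 against 17.5 CPM. *Ddx3y*, at 10.1 against 18.8 CPM, did not pass 2-fold. The 6 sex-linked genes summed to 5.07 CPM in members of cluster 7, 102 CPM in members outside it and 40.2 CPM in comparison nuclei of cluster 7, against 269 CPM in comparison nuclei outside it. Thus both kinds of sex-linked transcript were scarce in the members of cluster 7.

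Other low genes were the metallothionein *Mt1* at 0.364 times, *Trim9* at 0.395 times, *Tagln2* at 0.398 times, the transcription factor *Rfx4* at 0.401 times, the folate enzyme *Shmt2* at 0.422 times and *Nalf1* at 0.429 times. *Arap2* at 0.467 times, *Kctd8* at 0.484 times and *Stmn3* at 0.499 times were also past 2-fold, as was *Eif4ebp1* at 51.1 against 102 CPM. The last of the 20 were between 0.503 times for *Ebf1*, a relative of *Ebf2*, and 0.563 times for *Mthfd2*, and so did not pass 2-fold. For *Tagln2*, members of cluster 7 had 10.1 CPM and members outside it 103 CPM. Comparison nuclei had 20.6 CPM of it in cluster 7 and 144 CPM outside, so it was low there without *Bnc2* UMIs too. In the same order, *Rfx4* was at 16.5, 118, 22.6 and 170 CPM.

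**Figure D3:**
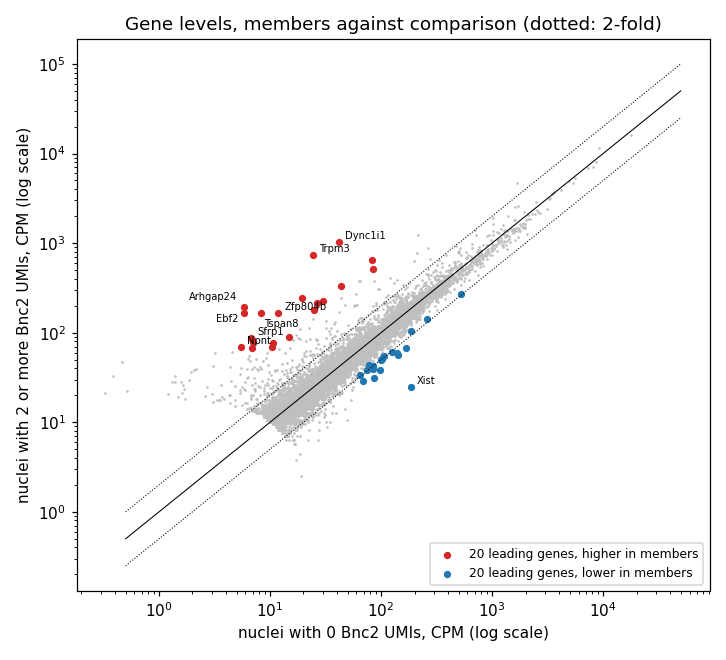
Level of each compared gene in comparison nuclei against members (CPM, log scales), for genes with a UMI in both groups. The solid line marks equal levels and dotted lines 2-fold, with *Trpm3* at 24.4 and 729 CPM and *Xist* at 185 and 24.6 CPM.

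Genes of OPC identity were present in members, at a sum somewhat below that of comparison nuclei. The 15 OPC genes summed to 9263 CPM (9114 to 9414) in members and 10262 CPM (10246 to 10279) in comparison nuclei, a ratio of 0.903 (0.888 to 0.917). Of 14 compared, 0 were past 2-fold higher and 1 was lower, *Nkx2-2*, an oligodendrocyte lineage factor, at 6.31 against 21.8 CPM. The lineage factors *Olig1*, *Olig2* and *Sox10* were at 575, 295 and 82.7 CPM in members against 619, 293 and 87.4 CPM. *Pdgfra*, the PDGF receptor by which the cells were isolated, was at 314 against 255 CPM, a ratio of 1.23 (1.13 to 1.35). The OPC sum was 7521 CPM in members of cluster 7 and 10987 CPM in members outside it, or 0.731 and 1.07 times the 10283 CPM of comparison nuclei outside the cluster. Comparison nuclei of cluster 7 had 7391 CPM, so the lower sum was shared by nuclei there without *Bnc2* UMIs. For the 10 primitive OPC genes, the sum was 3351 CPM against 2917 CPM, a ratio of 1.15 (1.12 to 1.18), with 0 of 10 past 2-fold.

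Markers of other cell types gave no name to the set. Of 6 astrocyte genes compared, 2 were past 2-fold higher, where 2.92% of all genes were. *S100b* was at 2.36 times (2.11 to 2.63) and *Gli3*, a hedgehog pathway transcription factor, at 5.13 times (4.27 to 6.12). The sum of the 11 astrocyte genes was 981 against 759.6 CPM, a ratio of 1.29 (1.23 to 1.36). The defining genes *Gfap*, *Aqp4*, *Aldh1l1* and *Gja1* were at 0 UMIs in members. The 18 meningeal fibroblast genes summed to 116 CPM (99.9 to 134) against 64.9 CPM (63.6 to 66.3). *Twist1* and *Tbx18* were the most abundant of them and 1 of 3 compared, *Fn1*, was past 2-fold, while *Col1a2*, *Dcn*, *Pdgfrb*, *Slc6a13* and *Slc4a10* were at 0. Pericyte genes summed to 10.7 CPM, microglial genes to 25.9 CPM and choroid plexus and ependyma genes to 27.1 CPM, with *Ttr*, *Folr1* and *Otx2* at 0. Endothelial genes were at 22.1 against 60.8 CPM, of which *Apln*, a peptide hormone gene, gave 10.7 and 49.7 CPM. The 12 neuron genes, led by *Map2* and *Syt1*, summed to 1756 against 1455 CPM, a ratio of 1.21 (1.16 to 1.25). Of 4 compared, *Elavl4* was lower at 0.497 times, and *Map2*, a dendrite protein, was at 1.25 times. The neuron genes *Rbfox3*, *Stmn2*, *Gad2*, *Slc17a7* and *Slc17a6* were at 0 UMIs in members. The neuron sum was 1866 CPM in members of cluster 7, 1648 CPM in members outside it and 2200 CPM in comparison nuclei of cluster 7.

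**Figure D4:**
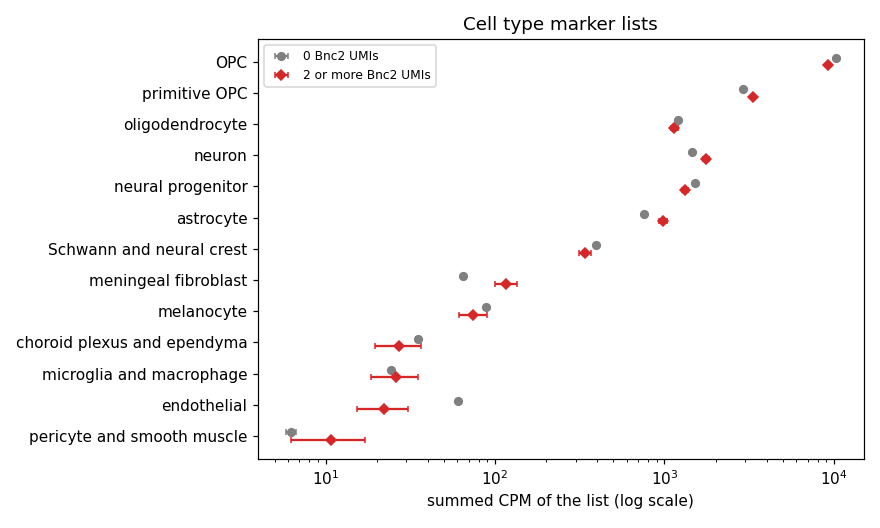
Summed level (CPM, log scale) of 13 marker lists in members and comparison nuclei, with bars for 95% exact Poisson intervals. The OPC list is the highest in both groups, at 9263 and 10262 CPM, and the pericyte list the lowest, at 10.7 and 6.23 CPM.

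Within the families of *Trpm3* and *Nrxn3*, no other compared gene was past 2-fold higher. Of 4 NFI genes, 0 passed: beside *Nfia*, *Nfib* was at 0.980 times, *Nfic* at 1.30 times and *Nfix* at 0.803 times. Of 4 TRP channels *Trpm3* passed, and of 14 neurexins and partners *Nrxn3* passed. *Bnc1* was at 0 UMIs in members.

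Genes of the WNT pathway were among those higher. Of the 26 in the list, 14 passed the filter on low values, and of these 6 were past 2-fold higher, where 2.92% of all genes were, and 1 was lower. They were the ligand *Wnt5b* at 5.29 times (3.48 to 7.75), the receptors *Fzd2* at 2.49 times, *Fzd7* at 2.81 times and *Fzd9* at 4.50 times, the R-spondin receptor *Lgr4* at 2.16 times and *Sfrp1*. The feedback inhibitor *Nkd1* was lower, at 0.369 times (0.210 to 0.599). Of the 6, *Wnt5b*, *Fzd7* and *Sfrp1* were under 10 CPM in comparison nuclei, at 3.34, 5.62 and 6.75 CPM, and passed the filter through their level in members. *Ror1*, given above, is outside the list. The sum of the list was 1163 CPM in members of cluster 7 and 648 CPM in members outside it. Comparison nuclei had 1064.5 CPM in cluster 7 and 601 CPM outside it, so the higher sum was not particular to nuclei with *Bnc2* UMIs.

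Of 36 matrix genes, 25 passed the filter, and 6 were higher and 0 lower, beside 2.92% and 0.858% of all genes. The basement membrane collagens *Col4a1* and *Col4a2* were at 6.23 times (4.995 to 7.70) and 5.68 times (4.32 to 7.35), *Col25a1* at 4.58 times, *Adamtsl3* at 3.41 times, *Adamtsl1* at 2.03 times and *Fn1* at 2.03 times. *Col4a1*, *Col4a2* and *Col25a1* were under 10 CPM in comparison nuclei, at 9.41, 6.89 and 9.51 CPM. *Col4a1* was at 100.2 CPM in members of cluster 7 and 17.6 CPM in members outside it. The sum of the list, led by *Mmp16* and *Col11a1*, was at 1.02 times.

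In the lists that follow, the counts stand beside the same 2.92% higher and 0.858% lower of all genes. Of 21 axon guidance genes compared, 4 were higher, namely *Sema5a*, *Nrp2* at 2.92 times, *Robo1* at 2.07 times and *Efnb2* at 2.75 times, and the netrin receptor *Unc5d* was lower at 0.487 times. Of 20 receptor kinases and ligands compared, 3 were higher, *Pdgfd* at 4.73 times, *Epha4* at 2.01 times and *Ephb1* at 2.23 times. Other lists gave 1 higher gene each, which were *Tgfb2* at 4.57 times of 10 TGF-beta and YAP targets compared, *Bmpr1b* at 2.80 times of 13 NOTCH, BMP and ID genes, *Tcf7l1* at 2.04 times of 14 SOX and HMG factors, and *Neat1* at 2.28 times of 4 nuclear RNAs. Of 16 glutamate and GABA receptor genes compared, *Grm8* at 3.29 times and *Gabra3* at 2.04 times were higher, and *Grin2a* at 0.235 times and *Gabrg3* at 0.436 times lower. Of these higher genes, *Nrp2*, *Efnb2*, *Pdgfd* and *Grm8* were under 10 CPM in comparison nuclei. They passed the filter through their level in members. *Peg10*, 1 of 6 imprinted genes compared, was lower at 0.320 times, as was *Kcnc1*, 1 of 16 potassium and calcium channel genes, at 6.94 against 13.9 CPM from 11 UMIs.

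Over all members and all comparison nuclei, proliferation genes differed little in sum. The 25 S phase genes were at 0.930 times (0.899 to 0.961) and the 28 G2/M genes at 1.05 times (1.03 to 1.07), with 0 past 2-fold in either list. Within cluster 7, however, the G2/M sum was 5675 CPM in members and 4010 CPM in comparison nuclei. Outside the cluster, it was 4883 and 5038 CPM. In the same order, the S phase sums were 2011, 1879, 2425 and 2391 CPM. The cause of the higher G2/M sum in members of cluster 7 was not tested. Genes of p53 and its targets were at 0.852 times (0.783 to 0.926).

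Since *Bnc2* and *Nfia* lie on 1 chromosome, the level of chromosome 4 as a whole was measured. It took 5.66% of the UMIs in members and 5.67% in comparison nuclei, a ratio of 0.999 (0.992 to 1.01). Within 5 Mb of *Bnc2*, 23 genes were compared and 1 was higher, *Adamtsl1*. Within 5 Mb of *Nfia*, 23 were compared and *Ror1* was higher.

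Chromosome 1 was at a higher level in the members of cluster 7. It took 8.41% of their UMIs against 5.94% in comparison nuclei outside the cluster, a ratio of 1.42 (1.41 to 1.43). The median log2 ratio was 0.45 over 476 genes, of which 85.5% were higher. The higher level was spread along the chromosome, with medians of 0.37 to 0.53 in each of 10 bins of 20 Mb. In single nuclei, the share of chromosome 1 ran from 6.14 to 13.1% with a median of 8.51% in the 61 members of cluster 7, and all 61 lay above 5.83%, the median of comparison nuclei outside it. Nuclei of cluster 7 with 0 *Bnc2* UMIs had a median log2 ratio of 0.39 and those with 1 had 0.43, while members outside the cluster had 0.07. For the other 7 clusters, the medians given here are of nuclei with 0 *Bnc2* UMIs. Each of these clusters was set against such nuclei outside both itself and cluster 7. On that basis, the median of chromosome 1 ran from -0.14 to 0.14. Other chromosomes moved less in members of cluster 7, with 0.24 for chromosome 12 and -0.23 for chromosomes 11, 17 and X. Chromosome 12 ran from -0.53 to 0.57 among the other clusters, so its value in cluster 7 was inside their range. Shifts of whole chromosomes were not particular to cluster 7, since chromosome 14 was at -0.83 in cluster 3. Chromosome 1 was singled out after its values were seen, and the number of DNA copies was not measured.

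**Figure D5:**
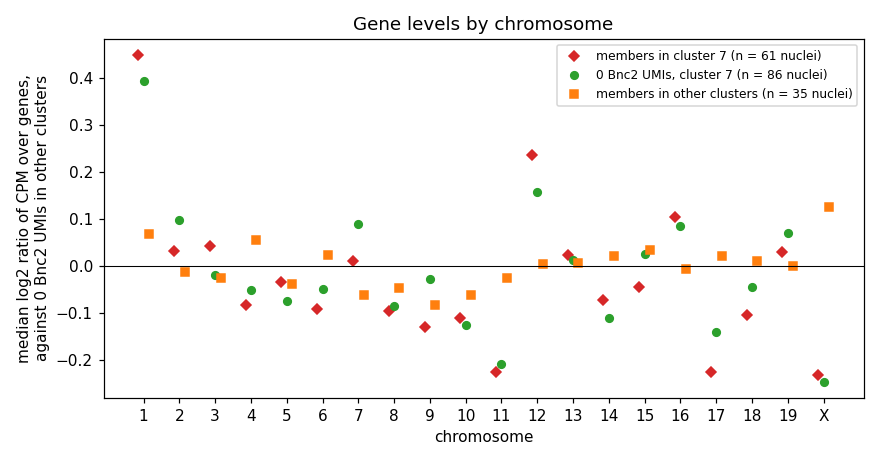
Median log2 ratio of CPM over the genes of each chromosome, against comparison nuclei outside cluster 7, for 3 sets of nuclei. Chromosome 1 is at 0.45 in members of cluster 7, 0.39 in nuclei of that cluster with 0 *Bnc2* UMIs and 0.07 in members of other clusters.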

How the data were processed

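The cultured BB-p53n OPCs gave 1 library of nuclei. Per the labels, the authors used Cell Ranger 8.0.1 and mm39. The deposited values are UMI counts that were not normalized. The other samples listed were not analysed here. Gene positions came from GENCODE vM39, whose GRCm39 build is mm39.

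The members and gene lists were chosen with earlier results of these data known. Barcodes with 2000 to 8000 detected genes were kept, holding 141138093 of 154375410 UMIs, and no doublets were removed. These gene limits are those of the study's methods, but its supplement lists 1954 nuclei after filtering, so the set used here is wider. In the files, 1954 of the 8917 had at most 5% mitochondrial UMIs, 30 of them members; no such limit is given in the sources used here. Counts were summed per group and given as CPM with 95% exact Poisson intervals. Ratios carry exact binomial intervals. Genes with a mean CPM of at least 10 were compared, and called at a ratio of 2 or 0.5. No significance test was run, since 1 library has no replicates. Chromosome medians used genes of at least 20 CPM and a pseudocount of 0.5 CPM.

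Clusters and neighbors used Seurat 5.3.0 in R 4.3.3, with settings that the study's methods give (scale factor 1000, 3000 variable genes less *Bnc2*, total counts regressed out, principal components 1 to 20, 200 neighbors, resolution 1). Scrublet in scanpy 1.11.5 called 0 doublets at its automatic threshold, so that its calls had not worked and only its scores were used. Thinning to 5000 UMIs left out 1 member and 154 comparison nuclei. The code for ratios and intervals was tested on simulated data.

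Genes named are the 5 markers, the 20 highest and 20 lowest ratios (at least 100 UMIs in members, or at the comparison's level for the lowest, and a UMI in 10% of the nuclei of the higher group), genes of 43 lists past 2-fold, the 2 most abundant of a list, genes near *Bnc2* and *Nfia* past 2-fold, and *Trp53* and *Pdgfb*. Some genes and lists are not reported here. Other OPC, NFI and sex-linked genes, *Bnc1* and genes at 0 were named after their values were seen. RefSeq upstream windows are of GRCm38.p6. GENCODE windows on GRCm39 were added after the RefSeq counts had been seen, and both results are given.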

Additional observations from a re-analysis of the deposited data

Results flagged for a closer look

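Barcodes outside the limits on detected genes were in no comparison. Of the 212 barcodes above 8000 genes, 5 had 2 or more *Bnc2* UMIs, or 2.36% (95% exact binomial interval 0.770 to 5.42), above the 1.42% that a count of 0 would allow there. Their median depth was 53105 UMIs, against 13771 in kept nuclei, and *Bnc2* was at 2.35 CPM, against 3.15 CPM. Of the 918 barcodes below 2000 genes, 1 had 2 or more.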

How the results depend on the processing

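The number of members followed the threshold and depth. It was 244 at 1 or more *Bnc2* UMIs, 40 at 3 or more, 18 at 5 or more, 33 after thinning to 5000 UMIs and 30 with at most 5% mitochondrial UMIs. Genes 2-fold higher and lower numbered 118 and 3 at 1 or more UMIs, 568 and 441 at 3 or more, 852 and 774 at 5 or more, 931 and 1037 after thinning, 574 and 369 at the mitochondrial limit, 416 and 167 at a mean CPM of 5, and 91 and 10 at 50. Lower genes numbered 138 with 3000 to 7000 detected genes, 158 without the top 8% by Scrublet score and 155 with the mean of each nucleus's CPM. The sets that gave most genes past 2-fold were small ones with few UMIs, and the cause was not tested. Neighbors that were members made up 18.0% at 3 or more UMIs and 10.4% at 5 or more, where members were 0.449% and 0.202% of the kept nuclei. The chromosome 4 ratio was 0.985 with 3000 to 7000 genes, 0.991 at the mitochondrial limit, 0.975 at 3 or more UMIs, 0.990 after thinning and 1.02 with median-of-ratios scaling. In the same order the OPC ratio was 0.863, 0.749, 0.755, 0.746 and 0.921, and it was 0.846 without the Scrublet nuclei, 0.962 at 1 or more UMIs, 0.724 at 5 or more and 0.851 with the mean of each nucleus's CPM.

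Chosen after seeing the data, the 61 members of cluster 7 against comparison nuclei outside it gave 645 genes higher, 461 lower, a chromosome 4 ratio of 0.967 and an OPC ratio of 0.731. The 35 members outside it gave 104 higher, 80 lower, 1.03 and 1.07. The 61 held 788210 UMIs and the 35 held 796770. Of named genes, *Adamtsl3* reversed to 0.818 times in those 35. *Kcnc1* reversed to 1.47 at the mitochondrial limit, 1.09 at 5 or more UMIs and 1.49 after thinning. *Pdgfb* was at 0 at the mitochondrial limit and after thinning, and *Pdgfd* at 0 at 5 or more. *Nfia* passed 2-fold in some settings, from 1.20 times in the 35 members to 2.88 times at 5 or more UMIs. The share of leading genes with the short NFI site was 37.5% at RefSeq starts and 17.4% at GENCODE starts, and with a TCF/LEF motif 12.5% and 0%. No paired analysis was possible because there was 1 library.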
